A study of Mus musculus with 4 samples.

Results

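Krt79, Krt17, Defb6, Cst6, Sostdc1 and Gm94 are 6 genes listed here as markers of the infundibulum and upper hair follicle. They were chosen by name, make up 6 of 24378 gene rows, and were rows in all 4 libraries. The questions were whether cells sorted as interfollicular basal epidermis carried these genes together, and how each gene stood to Krt10, a keratin that marks differentiating epidermis. The 2 are not exclusive, as some cells described below carried several of the genes and Krt10 as well. The mice were Ivl-CreERT2/R26-tdTomato females of 57 days, all given 10 µg/g tamoxifen by intraperitoneal injection 2 days before dorsal skin was taken (the dose on the labels, from which the study's methods differ). In this model the involucrin (Ivl) promoter drives an inducible Cre, and tdTomato marks cells in which it was active together with their progeny. Live cells positive for CD49f and LY6A and negative for CD34 were sorted as traced (Tom+) or non-traced (Tom-) and captured on microfluidic chips of 96 wells. There were 2 libraries of each sort, told apart here as run 1 and run 2 by a tag in their titles, and values are given in the order Tom+ run 1, Tom+ run 2, Tom- run 1 and Tom- run 2 (library order). Both sorts came from mice with the same alleles and drug.

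The upper follicle lies between the epidermis and the sebaceous gland, and its infundibulum is continuous with the interfollicular epidermis at the skin surface. Basal keratinocytes in both places make the keratins Krt5 and Krt14, and cells that commit to epidermal differentiation lose Krt14 and gain Krt10 and Krt1. The CD34-negative gate removes bulge cells of the lower follicle, whereas LY6A (Sca-1) is carried by both interfollicular epidermis and infundibulum, so upper follicle cells could pass the gate. Among the markers, Krt79 is a type II keratin of the infundibulum and sebaceous duct, and Krt17 is a type I keratin of follicle epithelium that is also induced in stressed epidermis. Defb6 encodes a beta-defensin, Cst6 encodes cystatin M/E, an inhibitor of cysteine proteases, and Sostdc1 encodes a secreted antagonist of BMP and Wnt signalling.

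Cells were wells with at least 2000 unique molecular identifiers (UMIs) over gene rows, which left 161 of 384 wells. They comprised 35, 58, 20 and 48 cells in library order. The libraries held 81630 to 305407 UMIs in these cells, with medians of 3225 to 4524.5 UMIs per cell. For shares of cells, each cell was thinned at random to 2000 UMIs, and intervals are exact 95% Clopper-Pearson intervals that cover counting error only. On the sorted population, all 161 cells had UMIs of at least 3 of 10 interfollicular basal genes. This does not tell interfollicular from follicle cells, since Krt5 and Krt14, made in both, are on that list. The 3 cells with 3 or more T cell genes passed as well. The tdTomato transcript had 29 and 48 UMIs in the Tom+ libraries and 0 and 3 in the Tom- libraries. No column name was shared between libraries, and nothing in the labels ties a library to a named animal. The study counts fewer mice for these sorted cells than there are libraries, so not every library can be a separate animal. Which libraries share a mouse is not stated, and traced and non-traced libraries may do so. The p-values below therefore measure the spread between these libraries alone, and n counts libraries and not animals.

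Promoters are shown for Krt79 and Defb6, the 2 of the 6 genes for which RefSeq windows were available, in build GRCm38.p6. Each window runs from 250 bases before to 50 bases after the gene start. These 2 genes were seen in the fewest cells of the 6 and shared the cell with most UMIs of each. The Krt79 window is chr15:101940275-101940574 on the minus strand, and the Defb6 window is chr8:19225228-19225527 on the plus strand. Capitals mark AGATAA, the GATA-type motif searched on both strands.
Krt79: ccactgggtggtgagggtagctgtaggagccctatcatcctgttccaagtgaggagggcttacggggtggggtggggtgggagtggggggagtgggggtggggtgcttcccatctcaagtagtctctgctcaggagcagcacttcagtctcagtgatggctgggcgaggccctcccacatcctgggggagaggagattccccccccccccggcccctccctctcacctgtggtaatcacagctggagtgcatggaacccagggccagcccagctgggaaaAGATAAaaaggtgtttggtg
Defb6: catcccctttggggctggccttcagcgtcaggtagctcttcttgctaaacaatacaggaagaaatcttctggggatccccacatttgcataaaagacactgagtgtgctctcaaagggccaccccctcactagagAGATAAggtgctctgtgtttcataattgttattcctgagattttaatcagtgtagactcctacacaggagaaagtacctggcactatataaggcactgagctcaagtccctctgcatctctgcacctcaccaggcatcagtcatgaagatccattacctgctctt

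AGATAA was found once in each window on the gene's own strand, at position -115 of Defb6 and at position 31 of Krt79, counted from 1 at the first base of the gene. On either strand it occurred in 11.2% of 32851 promoter windows, so a match is a description of the letters and no more. TATAAA, searched in the same way and present in 13.6% of windows, was in neither. The search was for these exact letters, so near variants of them were not looked for. Gata6, the GATA factor of the upper follicle and sebaceous duct, had 1 UMI in the 161 cells.

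Krt79 was seen in few cells, all of them in run 2 libraries. It had 108 UMIs in 5 of 58 cells of Tom+ run 2 and 4 UMIs in 2 of 48 cells of Tom- run 2. It had none in the 35 cells of Tom+ run 1 and none in the 20 cells of Tom- run 1. By a limit of 3 counts, which bounds the share of cells with a UMI and not of cells that express the gene, these allow up to 8.57% and 15.0%. A single Tom+ run 2 cell held 88 of the 112 Krt79 UMIs. Defb6 was as rare, with 1, 14, 0 and 3 UMIs in library order, in 1, 3, 0 and 2 cells. The 2 genes marked 11 cells between them, and 2 of these cells carried both.

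Krt17 was the most widespread of the 6 genes. It was seen in 16 of 35 cells (45 UMIs) of Tom+ run 1 and 37 of 58 cells (324 UMIs) of Tom+ run 2. It was seen in 16 of 20 cells (68 UMIs) of Tom- run 1 and 32 of 48 cells (123 UMIs) of Tom- run 2. The level of Krt17 was thus lowest in Tom+ run 1, at 286 CPM (UMIs scaled to the library's total over kept cells), and the other libraries lay between 666 and 1061 CPM. In such library sums, fewer cells of a type and less RNA per cell cannot be told apart. The cell with the most Krt79 also held 147 of the 324 Krt17 UMIs of Tom+ run 2. How reads shared with other type I keratins of the same gene cluster were assigned is not given in the sources used here, so the Krt17 count may include or lack some of them.

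Gm94 followed the sort label. It had 103 UMIs in 12 cells of Tom+ run 1 and 184 UMIs in 26 cells of Tom+ run 2, against 13 UMIs in 2 cells of Tom- run 1 and 30 UMIs in 3 cells of Tom- run 2. In the last library 1 cell held 28 of the 30 UMIs. Cst6 had 17 and 48 UMIs in 8 and 20 Tom+ cells, none in Tom- run 1 and 7 UMIs in 4 cells of Tom- run 2. Sostdc1 showed the opposite order in CPM, with 31.8, 121, 245 and 255 in library order. These Sostdc1 levels rested on 4, 13, 4 and 11 cells, respectively.

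Thinned to equal depth, the shares of cells with Gm94, Krt17 and Sostdc1 did not overlap between the sorts, and those of the other 3 genes did. Of 6860 genes seen in at least 5 thinned cells, 33.5% did not overlap, so the 3 of 6 are no result about these genes. Gm94 shares were 31.4% and 37.9% in the Tom+ libraries and 10.0% and 4.17% in the Tom- libraries. The difference of 27.6 percentage points was the largest of the 6, and with 2 libraries against 2 the exact two-sided permutation test cannot give less than the p = 0.333 found here. Krt17 shares were 37.1%, 53.4%, 55.0% and 56.2% in library order. Sostdc1 shares were 11.4%, 15.5%, 20.0% and 16.7%, and both genes, lower in Tom+ by 10.3 and 4.86 percentage points on average, gave the same smallest p = 0.333 in the exact permutation test. The Cst6 shares of 2 of 35, 11 of 58, 0 of 20 and 3 of 48 cells overlapped between the sorts.

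**Figure D1:**
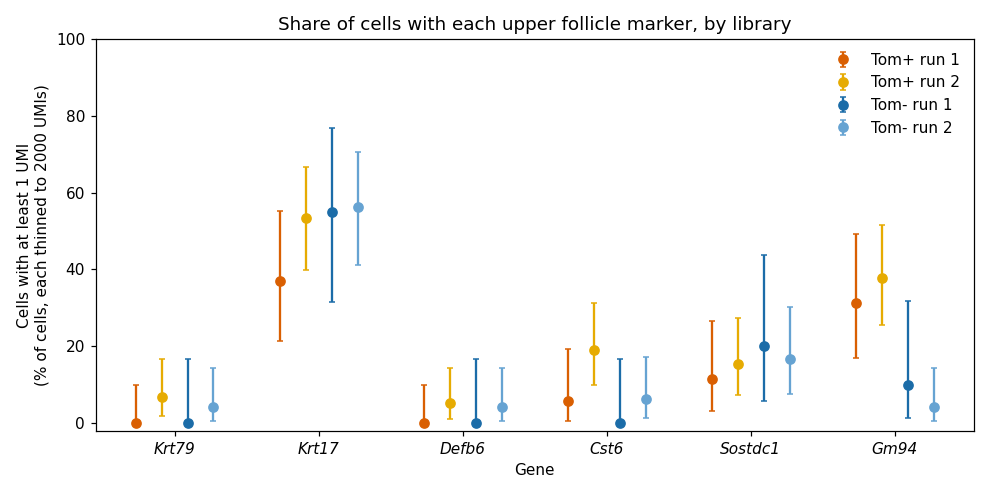
Share of cells with at least 1 UMI of each gene after thinning to 2000 UMIs per cell (vertical axis, percent), by gene and library, with exact 95% binomial intervals. Krt17 lies between 37.1% and 56.2% in all 4 libraries, Gm94 separates Tom+ from Tom- libraries, and Krt79 and Defb6 are at 0 in both libraries of run 1.

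The 6 genes did not occur as 1 panel. At full depth 24 cells had none of them, 77 had 1, 41 had 2, 14 had 3 and 5 had 4, and no cell had 5 or 6. The cells with more members were deeper, with median totals of 3136 UMIs for cells with none and 7945 UMIs for cells with 4. After thinning, 40 cells had none, 81 had 1, 31 had 2, 8 had 3 and 1 had 4. At this equal depth the median totals of cells with 0 to 3 members lay between 3338 and 4066 UMIs. All but 1 of the 9 thinned cells with 3 or more members were from Tom+ run 2.

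Some pairs were seen together more often than others. In thinned cells Sostdc1 was seen in 18 of 82 Krt17 cells and in 7 of the 79 other cells, and Gm94 was seen in 11.0% of the Krt17 cells and 35.4% of the others. Cst6 and Gm94 went together in the pooled cells, since 43.8% of 16 Cst6 cells had Gm94 against 20.7% of the other cells. Of the 7 cells with both genes, 6 were from Tom+ run 2. In Tom+ run 1 Gm94 was in 0 of 2 Cst6 cells and 33.3% of the others. Sostdc1 and Gm94 shared 2 cells of the 25 and 37 that carried them. These shares pool cells of 4 libraries and are given as a description without a test.

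At full depth, Krt79 was seen beside Krt17 and Sostdc1 more than beside Gm94. Of the 7 cells, 6 had Krt17 and 5 had Sostdc1, against 61.7% and 17.5% of the 154 cells without Krt79, and 1 had Gm94 against 27.3%. Defb6 was seen in 2 of the 7 and in 4 of the 154. In Tom+ run 2 Sostdc1 was in 4 of 5 Krt79 cells and 9 of 53 others, whereas Gm94 was in none of the 5 and 26 of the 53. In Tom- run 2 Gm94 went the other way, in 1 of 2 Krt79 cells and 2 of 46 others, and Sostdc1 was in 1 of 2 and 10 of 46. In thinned cells the differences were smaller for Sostdc1, in 2 of 6 Krt79 cells against 14.8% of the others, and Krt17 was in 4 of 6 against 50.3%.

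Single Krt79 cells differed in their epidermal keratins. The Tom+ run 2 cell with 88 Krt79, 147 Krt17 and 10 Defb6 UMIs had 60 Krt10, 40 Krtdap and 3 Krt14 UMIs of 8136 in all. A second cell of that library had 11 Krt79, 21 Krt17, 3 Defb6, 23 Krt10 and 33 Krt14 UMIs, and another had 7 Krt79, 17 Krt17, 6 Sostdc1, 5 Krt10 and 23 Krt14 UMIs. Krt10 and Krt79 thus occurred in the same cells of Tom+ run 2, where Krt10 was in 5 of 5 Krt79 cells and 52 of 53 others. In the other 2 Tom+ Krt79 cells there was 1 Krt79 UMI each beside 19 and 33 Krt10 UMIs. Krt10 was in 15 of the 46 Tom- run 2 cells without Krt79. The 2 Tom- cells with Krt79, at 3 and 1 UMIs, had no Krt10 and 85 and 29 Krt14 UMIs. Ly6a, which encodes the LY6A antigen of the gate, had no UMI in 6 of these 7 cells, although it was seen in 45 of the 161 cells only.

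**Figure D2:**
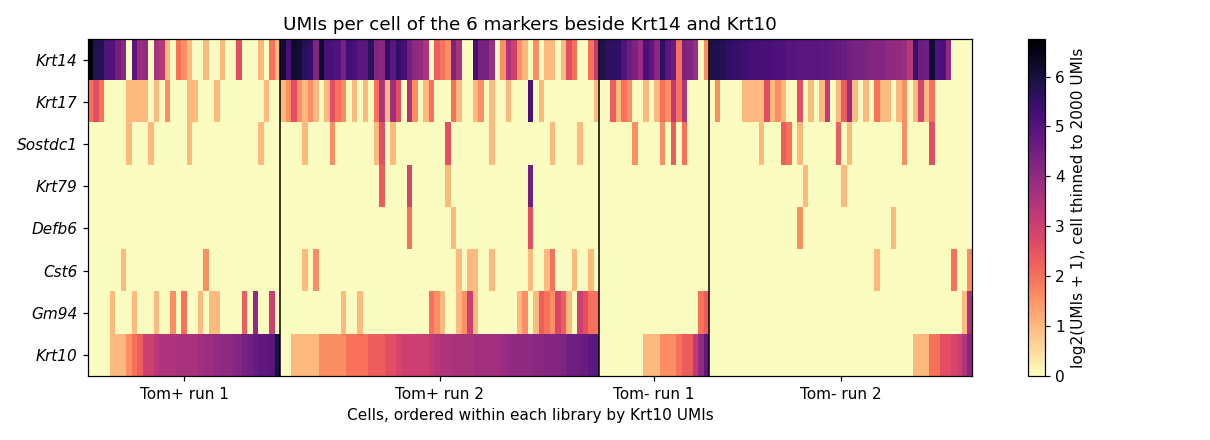
UMIs of the 6 genes beside Krt14 (basal) and Krt10 (differentiating) in each of the 161 cells (columns), as log2(UMIs + 1) after thinning to 2000 UMIs, ordered within each library by Krt10. Krt17 fills mostly the Krt14 side, Gm94 the Krt10 side, and Krt79 is confined to 6 thinned cells of the 2 run 2 libraries. Sostdc1 lies in both Krt10 classes of the Tom+ libraries and only in Krt10-negative cells of the Tom- libraries.

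Krt10 divided the genes. A cell was called Krt10-positive with 6 or more Krt10 UMIs of 2000, which gave 25, 37, 3 and 4 positive cells and 10, 21, 17 and 44 negative cells in library order. Krt17 was seen in 60.0%, 81.0%, 64.7% and 61.4% of the Krt10-negative cells and in 28.0%, 37.8%, 0% and 0% of the Krt10-positive cells. Krt17 was therefore less frequent beside Krt10 in 4 of 4 libraries, by a mean of 50.3 percentage points (mean difference -50.3 ± 15.5, SD, n = 4). An exact two-sided sign-flip permutation test over the 4 libraries gave p = 0.125, the smallest it can give. Over 20 other thinning seeds the mean difference was -38.4, with a range of -48.4 to -21.6, so the reported thinning lay beyond all of them in size. It was -20.5 with a minimum of 1000 UMIs, -27.1 with a Krt10 cut-off of 1 UMI and -31.7 with at least 2 Krt17 UMIs. With Krt17 counted unthinned in the same classes the difference was -40.8 ± 25.1 (SD, n = 4), and Krt17 was then seen in 2 of the 3 Krt10-positive cells of Tom- run 1.

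Gm94 had the reverse relation. It was seen in 20.0%, 9.52%, 0% and 0% of the Krt10-negative cells and in 36.0%, 54.1%, 66.7% and 50.0% of the Krt10-positive cells. The difference was 44.3 ± 21.1 percentage points (SD, n = 4), higher in 4 of 4 libraries, with p = 0.125 in the exact sign-flip permutation test, and 40.2 ± 25.3 (SD, n = 4) with Gm94 unthinned. Within Krt10-positive cells the mean Gm94 share was 45.0% in the Tom+ and 58.3% in the Tom- libraries, and within Krt10-negative cells it was 14.8% and 0%. The higher share of Gm94 in Tom+ cells thus stood beside a larger share of Krt10-positive cells, and the part of the one in the other was not tested.

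The remaining genes showed no such division at this depth. Sostdc1 was less frequent in Krt10-positive cells of 3 of 4 libraries (mean difference -13.2 ± 11.0, SD, n = 4), with p = 0.250 in the exact sign-flip permutation test. Cst6 differed by 14.1 ± 24.0 percentage points (SD, n = 4), higher in 2 libraries, lower in 1 and at 0 in both classes of the other, with p = 0.5 in that exact permutation test, and by 25.6 ± 20.7 (SD, n = 4) unthinned. Without Tom- run 2, where 2 of 4 Krt10-positive cells had Cst6, the thinned difference was 2.93. Krt79 and Defb6 differed by -0.3 and 0.891 percentage points on 6 and 5 cells. No Sostdc1, Krt17, Krt79 or Defb6 was seen among the 3 and 4 thinned Krt10-positive cells of the Tom- libraries, where the upper limits of the exact intervals are 70.8% and 60.2%.

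**Figure D3:**
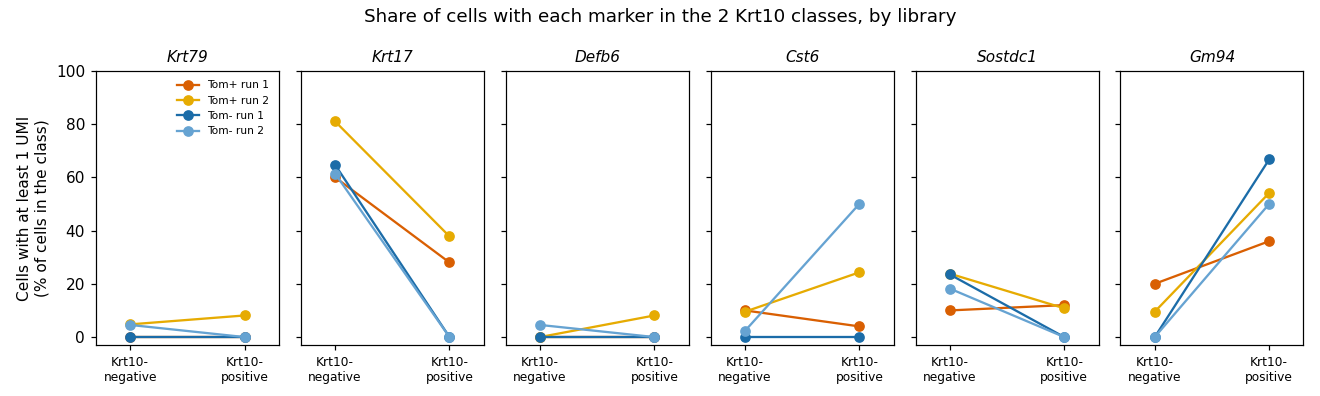
Share of Krt10-negative and Krt10-positive cells with at least 1 UMI of each gene (vertical axis, percent of thinned cells in the class), 1 line per library. The Krt17 line falls and the Gm94 line climbs in all 4 libraries, while Cst6 and Sostdc1 lines do not all run one way.

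Along the range of Krt10 in Tom+ cells, Krt17 and Gm94 moved in opposite directions. Krt17 was seen in 5 of 6 cells with no thinned Krt10 UMI, 18 of 25 cells with 1 to 5, 19 of 49 cells with 6 to 19 and 2 of 13 cells with 20 or more. Gm94 was seen in 0, 4, 21 and 8 of the same cells. Krt14 averaged 58.3, 34.1, 7.06 and 1.85 UMIs per cell over these bins, so the bins ran from basal to differentiating cells. The first and last bins hold under 20 cells. All 3 thinned Defb6 cells and 3 of the 4 Krt79 cells of the Tom+ sort lay in the bin of 6 to 19 Krt10 UMIs.

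The same split was visible when cells were grouped by which genes they had, a grouping chosen after the values were seen and given without a test. Cells with Krt17 or Sostdc1 but neither Gm94 nor Cst6 numbered 73, and 20.5% of them were Krt10-positive, with medians of 27.0 Krt14 and 1.00 Krt10 UMIs per thinned cell. Cells with Gm94 or Cst6 but neither Krt17 nor Sostdc1 numbered 30, and 90.0% of them were Krt10-positive, with medians of 1.00 Krt14 and 15.0 Krt10 UMIs. The 16 cells with both kinds lay between, at 68.8%, and the 42 cells with neither kind were at 38.1%. These values pool the sorts, and the first group held 12 and 27 Tom- cells, of which 0% were Krt10-positive. In Tom+ run 1 the first group was already 58.3% Krt10-positive and the second 80.0%, so the separation was weakest in that library. Cells with neither kind were also 80.0% Krt10-positive there, the same as the second group.

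**Figure D4:**
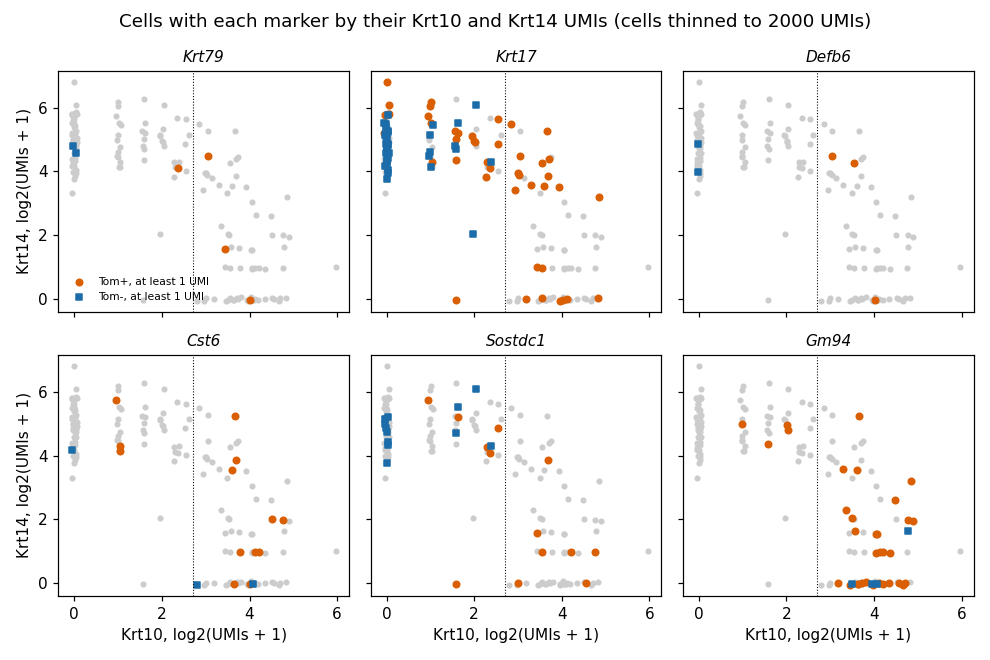
Each cell by its Krt10 (horizontal) and Krt14 (vertical) UMIs on log2(UMIs + 1) axes after thinning to 2000 UMIs, with small random offsets, and the Krt10 cut-off as a dotted line. Coloured points carry the gene of the panel title, and Gm94 gathers at high Krt10 and low Krt14 while Krt17 gathers at high Krt14.

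Expression levels were compared in counts summed per library and Krt10 class, with library as a block. Gm94 and Krt17 went the same way as in the shares, on the same cells, and Cst6, not divided there, was called here. Of the 4 members that passed the filter on low counts, Gm94 and Cst6 were higher and Krt17 lower in Krt10-positive cells (edgeR quasi-likelihood test, Benjamini-Hochberg adjusted p under 0.05). Among the 1805 genes tested 3.38% were called higher and 4.82% lower. Krt79 and Defb6 were too low to be tested. The comparison was added after the shares had been seen, and Krt10 itself chose the classes and is not counted.

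Gm94 reached 896, 841, 773 and 1829 CPM in the Krt10-positive cells in library order. It stood at 172, 54.0, 0 and 5.90 CPM in the Krt10-negative cells. The Krt10-positive values of the Tom- libraries rested on 3 and 4 cells, of which 2 and 2 had Gm94. In Tom- run 2, 1 of them held 28 of the 29 UMIs. The log2 fold change was 4.40 (SE 0.47, edgeR adjusted p = 5.73e-09). This call held under all 21 alternative settings that gave a value.

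Krt17 stood at 143, 1039, 119 and 0 CPM in Krt10-positive cells and at 573, 1112, 1018 and 729 in Krt10-negative cells. It was lower in each library, though by little in Tom+ run 2, where the cell with 147 Krt17 UMIs was Krt10-positive. The log2 fold change was -1.46 (SE 0.36, edgeR adjusted p = 0.00563). The Krt17 call was lost in 8 of 21 alternatives. These were leaving out Tom+ run 1 (adjusted p = 0.346), Tom- run 1 (0.116) or Tom- run 2 (0.0966), minimums of 1000 UMIs (0.158) and 5000 UMIs (log2 fold change 0.10), Krt10 cut-offs of 1 UMI (-0.17) and 12 UMIs (-0.87), and the fit without library as a block (0.286). Without the cell with 147 Krt17 UMIs the log2 fold change was -2.20.

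Cst6 had 143, 207, 0 and 315 CPM in Krt10-positive cells and 38.2, 43.2, 0 and 11.9 in Krt10-negative cells. It was higher in the 3 libraries that held it, with a log2 fold change of 2.66 (SE 0.79, edgeR adjusted p = 0.0261). It had too few counts to be tested without Tom+ run 2. The Cst6 call was lost in 9 of 16 alternatives, among them leaving out Tom+ run 1 (adjusted p = 0.151) or Tom- run 2 (0.194). Sostdc1 gave -1.45 (SE 0.60, adjusted p = 0.164), with 38.1, 98.7, 0 and 0 CPM in Krt10-positive cells against 19.1, 173, 309 and 279. Whether the Krt10 relation differed between the sorts was tested as an interaction, in which 0.166% of the 1805 genes were called, Gm94 among them with a fitted difference of log2 fold changes of -4.82 (SE 1.11, edgeR adjusted p = 0.00944, lost in 10 of 19 alternatives), and Krt17 was not called (3.22, SE 0.91, adjusted p = 0.121).

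The genes around them in this comparison were those of the epidermal layers. Of 13 genes on the interfollicular differentiation list 9 were tested apart from Krt10, and all 9 were higher in Krt10-positive cells (median log2 fold change 3.0, against -0.11 over all genes tested). Krtdap and Ly6g6e, at 5.51 and 4.49, were the only genes with a larger positive log2 fold change than Gm94 among those called with the same sign in every library, and Krt78 (4.25) and Elovl4 (4.09), a fatty acid elongase of the skin barrier, came next. Of 10 interfollicular basal genes 6 were lower, among them Krt14 (-3.51) and Cdh13 (-3.93). Krt42 (-3.65), S100a6 (-3.50) and Anln (-3.42), a cytokinesis gene, completed the 5 largest falls. Of the 2 bulge and outer root sheath genes tested, Postn was lower (-2.89).

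Between the sorts, summed counts of all cells gave Gm94 as the only member called. Gm94 stood at 655 and 602 CPM in the Tom+ libraries and at 159 and 163 in the Tom- libraries, without overlap (log2 fold change 1.91, SE 0.34, edgeR adjusted p = 0.00375). Among 3070 genes tested 0.847% were higher and 0.391% lower in Tom+ libraries. The Gm94 call was lost with a minimum of 5000 UMIs (adjusted p = 0.314) and without the 5% of cells with most UMIs (adjusted p = 0.0818).

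The other 3 members tested were not called between the sorts. Cst6 gave a log2 fold change of 2.35 (SE 0.66, adjusted p = 0.101), Sostdc1 -1.60 (SE 0.46, adjusted p = 0.105) and Krt17 -0.12 (SE 0.40, adjusted p = 0.988). The levels of Cst6 and Sostdc1, like those of Gm94, did not overlap between the sorts, nor did those of 38.8% of the 3070 genes, while those of Krt17 did. With a library left out, the lone library of its arm is assumed to vary like the other arm. Cst6 then passed without Tom+ run 1 (adjusted p = 0.0281) or Tom- run 2 (0.0119, against a lone library at 0, so that it has no size), and Sostdc1 without Tom+ run 2 (0.00336) or Tom- run 1 (0.0287). Krt17 was -0.73 without the cell with most Krt79 UMIs. On the same samples all 11 tested genes of the differentiation list were higher in Tom+ libraries, with a median log2 fold change of 2.28 against -0.01 over all genes, and Krt10 itself by 2.23 (SE 0.30).

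The share of cells with at least 2 of the 6 genes varied more between libraries than between the sorts. Their thinned shares were 14.3% (5 of 35), 37.9% (22 of 58), 15.0% (3 of 20) and 20.8% (10 of 48) in library order. The 2 Tom+ libraries lay further apart than the sort means of 26.1% and 17.9%, and the difference of 8.19 percentage points became -3.63 without Tom+ run 2. Nor were such cells tied to Krt10 in 1 direction, since their share was higher among Krt10-positive cells in 2 libraries and lower in 2 (mean difference -3.47 ± 11.5 percentage points, SD, n = 4). This difference was 1.25 without Tom- run 1. Both are descriptions, since the 6 genes were chosen as a list.

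A further comparison asked whether such cells shared any other gene. Counts of cells with at least 2 members were set against those of cells with none in all 4 libraries, on 5 and 10, 22 and 9, 3 and 6, and 10 and 15 cells. Of 731 genes tested, members excluded, 0% were called by the edgeR quasi-likelihood test, 17 had an unadjusted p under 0.05, and DESeq2 called 0 (9 at an unadjusted p under 0.05). The 10 differentiation genes tested had a median log2 fold change of 0.46 and the 8 basal genes -0.13, against -0.01 over all genes. With a minimum of 1000 UMIs 10 genes were called.

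Cells with Krt79 were compared with cells without it in the 2 libraries that had at least 2 of each, on 4 against 54 and 2 against 46 thinned cells. Of 1821 genes other than Krt79, 0% were called, 139 had an unadjusted p under 0.05, and DESeq2 called 0 (38 at an unadjusted p under 0.05). In simulated data this fit recovered 30.8% of 4-fold changes, so differences of that size could be missed. Krt17 stood at 9713 CPM in the Krt79 cells of Tom+ run 2 and 485 in the others, and at 735 against 663 in Tom- run 2. Its log2 fold change was 2.39 (SE 0.62, edgeR adjusted p = 0.111), and this gene fell under 0.05 in 6 of 14 alternatives, with 0.0256 under DESeq2 size factors. The 14 were not all distinct. Leaving out either run 1 library repeated the main fit, seeds 4 and 6 gave the same value, and seed 2 gave that of unthinned classes. Gm94 gave -3.73 (SE 1.29, adjusted p = 0.300), Sostdc1 1.35 (SE 0.91, adjusted p = 0.829) and Cst6 -1.0 (SE 1.31, adjusted p = 0.936). The 11 differentiation genes tested had a median log2 fold change of -0.59, against -0.27 over all genes.

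Genes whose pattern across cells was most like a member were sought by Pearson r of ln(UMI + 1) after each library's mean was removed, over 161 cells and 4370 genes seen in at least 10 thinned cells. Krt17 was most like Fst (r = 0.41), which encodes follistatin, an activin antagonist, and then Tnfrsf12a and Tspo (both 0.33). For Krt79 the leading genes were Setd3 (0.41) and Lsr (0.40), and for the number of members per cell Fst (0.31) and Epcam (0.26). Of these 6 genes, all but Tspo were seen in 11 to 30 cells only, and the points share libraries. The 3 members outside the rule for this list were added after their values were seen. Gm94 was most like Krtdap (0.57), Sbsn (0.55) and Acer1 (0.52), genes of differentiating epidermis. Sostdc1 was most like Aldh3a1 (0.45), Efnb1 (0.41) and Sox9 (0.39), a transcription factor of the outer root sheath. Cst6 was most like Secisbp2l (0.50), with none of the differentiation list among its 5. Aldh3a1, Efnb1, Sox9 and Secisbp2l were seen in only 22, 18, 10 and 10 thinned cells, where 10 was the minimum.

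Among the members themselves Krt79 and Defb6 had r = 0.72, Krt79 and Krt17 0.41, Krt17 and Sostdc1 0.27, and Krt17 and Gm94 -0.30, again over 161 cells and as a description. The first value rests on cells named above, of which 1 held most UMIs of both genes. Krt17 had r = -0.30 with Krt10 and 0.30 with Krt14, whereas Sostdc1 had -0.02 and 0.03.

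At full depth 19 cells had 3 or more of the 6 genes, and they were set beside the 142 other cells for markers of other cell types. Lrig1, which marks stem cells of the follicle junction, had 5, 7, 3 and 19 UMIs in library order, and Nebl had 0. Of bulge and outer root sheath genes 3 or more were seen in 1 of the 19 cells and 5 of the 142. The bulge markers Cd34 and Lgr5 were at 0 in all libraries, whereas Krt6a was seen in 80, Postn in 34 and Sox9 in 14 of the 161 cells. The sebaceous genes Cidea and Pparg were at 0 too, and Scd1 was seen in 48, Mgst1 in 12 and Plin2 in 6 cells. The differentiation list was seen with 3 or more genes in 18 of the 19 cells and 102 of the 142. It reached 3 or more genes in all 35 and 58 Tom+ cells, against 11 of 20 and 16 of 48 Tom- cells. The 19 cells numbered 3, 13, 0 and 3 in library order. Cells with 3 and 4 members were also deeper, with medians of 5888 and 7945 UMIs. The contrast therefore cannot be told apart from sort and depth. Markers of T cells, with 3 or more of 4 genes, were in 1 of the 19 and 2 of the 142 cells.

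The 6 loci do not overlap another annotated gene in GENCODE vM21 on GRCm38, the build of the submitters' processing notes (mm10), and all are protein coding. Krt79 lies on chromosome 15 from 101929332 to 101940324 with 9 exons, Krt17 on chromosome 11 from 100256217 to 100261029 with 8 exons, and Cst6 on chromosome 19 from 5344705 to 5349574 with 3 exons, all on the minus strand. Defb6 lies on chromosome 8 from 19225478 to 19228209 and Sostdc1 on chromosome 12 from 36314139 to 36318452, both with 2 exons on the plus strand. Gm94 lies on chromosome 18 from 43777196 to 43792878 with 4 exons on the minus strand. The counts are of 5′ molecules over the whole gene.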

How the data were processed

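Single-cell 5′ RNA libraries were made by the authors on Fluidigm C1 chips, and the deposited values are UMI counts per gene and well, not normalized. The submitters' processing notes name mm10 and GRCm38, and the aligner and counter are not given in the sources used here. Spike-in and reporter rows were left out of gene totals. Wells with at least 2000 gene UMIs were kept, no doublet caller was run, and each cell was thinned to 2000 UMIs (seed 1). A cell was Krt10-positive from 6 UMIs. The study's cut-off is on log-normalized counts of a merged dataset, and 6 is the first whole count above it only if it is read as ln(UMI + 1) of a thinned cell, so the classes are not those of the study. Counts were summed per library, or per library and class where both classes had at least 2 cells, filtered with filterByExpr, scaled with TMM and tested with edgeR 4.0.16 (quasi-likelihood, two-sided, Benjamini-Hochberg threshold 0.05). Limma 3.58.1 and DESeq2 1.42.0 were alternatives, run in R 4.3.3, and the fits other than the interaction were tested on simulated data. There the Krt79 comparison recovered 30.8% of 4-fold and 65.4% of 16-fold changes. The other simulated comparisons recovered 70.9% to 97.6% of 4-fold changes. Genes that chose the classes were left out of the adjustment. Shares were tested with exact permutation tests over libraries, which are not all separate animals. Named genes were the 6 members, marker list genes, the reporters, the 5 largest called changes in each direction with the same sign in every library, and the 5 genes most like the number of members, Krt79 and Krt17. The members and lists were chosen with earlier results of these data known. The count over 1 further list of upper follicle genes is not reported here.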

Additional observations from a re-analysis of the deposited data

Results flagged for a closer look

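The relation of Gm94 to Krt10 differed between the sorts. The log2 fold change of Krt10-positive over Krt10-negative cells was lower in Tom+ than in Tom- libraries by a fitted -4.82 (SE 1.11, edgeR interaction adjusted p = 0.00944), where 0.166% of 1805 genes were called. The Tom- Krt10-negative cells held 0 and 1 Gm94 UMIs, so the fitted size depends on the prior count, and the call was lost in 10 of 19 alternatives, among them without Tom+ run 1 (adjusted p = 1), Tom- run 1 (0.716) or Tom- run 2 (0.602) and under DESeq2 (0.441).

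Wells below the UMI minimum, outside every comparison above, also held members. Those of Tom- run 2 had 10 Krt17 UMIs in 4 of 22 wells, or 497 CPM, above the limit of 3 counts. Transcripts of the cre row were seen in cells sorted as non-traced, with 18 UMIs in 11 cells of Tom- run 2 and 3 UMIs in 2 cells of Tom- run 1, against 20 and 25 UMIs in the Tom+ libraries.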

How the results depend on the processing

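The count of genes between the sorts, 38, became 8 with a minimum of 5000 UMIs and 116 with the run tag as a replicate block, under which Cst6 and Sostdc1 also passed (edgeR adjusted p = 0.0038 and 0.00238). It ranged from 27 to 65 when a library was left out. The run tags are not stated to pair animals, and run differences of the sorts had r = 0.14 over 3070 genes. Within runs, the share with at least 2 members differed (Tom+ minus Tom-) by -0.714 points in run 1 and 17.1 in run 2. Their mean equals the difference of 8.19 points between the sorts by construction. That share difference was -0.406 with a minimum of 1000 UMIs, -6.49 with at least 2 UMIs per gene, and -3.63 to 20.0 when a library was left out. Its Krt10 counterpart, -3.47, turned to 31.9 with a minimum of 5000 UMIs, 13.1 without thinning of genes or classes, 0.455 with at least 2 UMIs per gene, 1.10 for at least 3 members, 19.2 and 13.2 with Krt10 cut-offs of 1 and 12, and 5.23 over 20 other seeds. It ranged from -7.03 to 1.25 when a library was left out, so its sign was not stable. For Krt79 classes the count of 0 became 3 with a minimum of 1000 UMIs and with seeds 4 and 6, and 4 with seed 2, unthinned classes and DESeq2 size factors. No fit was possible with a minimum of 5000 UMIs, seed 3, at least 2 UMIs per gene or without either run 2 library. For cells with at least 2 members the count of 0 became 10 with a minimum of 1000 UMIs, 3 and 1 with seeds 3 and 4, and 4 with at least 2 UMIs per gene. The 148 genes called between Krt10 classes became 55 and 49 with minimums of 1000 and 5000 UMIs, 70 without the filter, 77 with thinned counts, and 26 and 66 with cut-offs of 1 and 12. They ranged from 56 to 117 when a library was left out. The Krt17 log2 fold change between the sorts turned to 0.18 with a minimum of 5000 UMIs, 0.04 without the filter and 0.54 without Tom+ run 1, and ranged from -1.42 to 0.54 when a library was left out. Its change between Krt10 classes turned to 0.10 with a minimum of 5000 UMIs, and with a cut-off of 1 its interaction with the sort turned to -0.57 and the Sostdc1 change to 0.49. The causes were not tested. Without the cell with most Krt79 UMIs the counts were 31 between the sorts and 137 between Krt10 classes. This alternative and the Krt10 class fits were chosen after seeing the data. The Gm94 share difference between the sorts, 27.6, was 13.2 with at least 2 UMIs, and that of Sostdc1, -4.86, was -0.167 with a minimum of 5000 UMIs.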

Other observations

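Reporter rows gave further values for cells with members. tdTomato was seen in 3 of the 7 Krt79 cells and 45 of the 154 others. In Tom+ run 2 it was seen in 3 of 5 and 26 of 53. DsRed, a row for a related fluorophore, had 1, 6, 0 and 1 UMIs in Tom+ run 1, Tom+ run 2, Tom- run 1 and Tom- run 2, and the rows for GFP, Cherry, CFP, mOrange, HcRed and RFP had 0. Wells below the UMI minimum also held 3 Defb6 and 2 Sostdc1 UMIs in Tom- run 2, 3 Sostdc1 UMIs in Tom+ run 1 and 3 Krt17 UMIs in Tom- run 1.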
